A study of Homo sapiens with 17 samples.

Results

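Antisense long non-coding RNAs are lncRNA genes named for a gene or locus that they lie opposite or next to, with the suffix -AS and, in most, a number. They were chosen by 3 conditions: the biotype lncRNA, a name ending in -AS or -AS and a number, and an average TPM (transcript level scaled to length and depth) of at least 1 after PABPN immunoprecipitation (IP). OIP5-AS1 was left out by name. Of 18869 genes in the table, 2970 were lncRNAs and 492 of these carried an antisense name. The TPM threshold kept 410, which left 409 after OIP5-AS1 was set aside, while 70 lay below it and 12 had no TPM. Values called on PABPN or on PABPC below are those of the PABPN IP or PABPC IP. Because the TPM on PABPN chose the members, comparisons with that TPM describe the choice and support nothing. EPKM, the editing measure, was not used in the choice, though it comes from the same RNA. All genes that pass the same TPM threshold gave the background: 15436 genes, of which 1586 were other lncRNAs and 12454 were protein-coding genes (PCGs).

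The cells were HEK293T, an established human embryonic kidney line, carrying a doxycycline-inducible construct delivered by lentivirus. RPS2-STAMP cells made RPS2, a protein of the small ribosomal subunit, fused to the C-to-U editing enzyme APOBEC1, and Control-STAMP cells made APOBEC1 alone. Doxycycline at 50 ng/ml was given to both for 24 h before they were fixed in 0.1% formaldehyde. RNA was sequenced from the lysate (Input) and after IP of the endogenous nuclear or cytoplasmic poly(A) binding protein, PABPN or PABPC. RPS2-STAMP had 3 samples in each of the 3 fractions, and Control-STAMP had 3 of the Input, 3 of the PABPN IP and 2 of the PABPC IP. The editing enzyme rides on an added, inducible copy of RPS2. The methods call the lysate cytoplasmic while the labels name no fractionation. Each gene has 1 EPKM (edits scaled to transcript length and read number, less the control) and 1 average TPM per fraction. Replicates were pooled, so no value here has an SD or a test and no difference could be set against replicate error. The number of reads and edits behind each value is unknown. Of the line's usual markers, VIM had a TPM of 184 in the Input, NEFL 26.9, KRT18 24.8 and NEFM 9.0, while KRT8 was at 2.16 and PAX2 at 0.797. Of genes of other cell types, COL1A1, a fibroblast collagen gene, had a TPM of 1.90, and PTPRC, ALB, COL1A2 and PECAM1 were not among the genes listed.

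Antisense lncRNAs are transcribed from the strand opposite another gene, either from within it, across its end or from a promoter shared with it. Many are capped, spliced and polyadenylated like mRNAs, and some act in the nucleus on the chromatin or RNA of the gene they overlap. The tail of a polyadenylated RNA carries mainly PABPN while the RNA is nuclear and mainly PABPC in the cytoplasm. Edits left by a ribosomal protein fused to APOBEC1 mark RNAs that came close to ribosomes, whether or not a protein was made from them.

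Both proteins bind the poly(A) tail, which is added downstream of a hexamer, usually AATAAA or its variant ATTAAA. The last 50 bases of the canonical transcript held either hexamer in 182 of the 406 members found in GENCODE 44, or 44.8%. The share was 52.1% of 1575 other lncRNAs and 82.1% of 12451 PCGs. AATAAA was present in 35.2% of antisense lncRNAs and ATTAAA without it in 9.61%. The sense strand of the transcript was searched, and a match describes the letters only. The 30-base windows below come from 6 members with a hexamer among those highest in EPKM or TPM, and they show the hexamer near the 3′ end to which a tail would be added. Some windows stop a few bases short of the annotated end. Each reads 5′ to 3′ on hg38 along the strand of the transcript, with 1 hexamer in capitals. The PIK3CD-AS2 window holds further copies of AATAAA upstream of the one in capitals.
EP300-AS1: cgttatcaattatatgatATTAAAgagaga
HOXC-AS1: cgtccctcAATAAAatttttatgaggatca
PITPNA-AS1: tcacattaAATAAAcaaggtaatctaatca
PIK3CD-AS2: aataaataAATAAAtaatctcggcatttct
FGD5-AS1: ccccacctAATAAAtgattttaatgagaaa
HOXA11-AS: aatatcggAATAAAgtgggtccaggcgcct
The EP300-AS1 window is at chr22:41174591-41174620 on the minus strand, with 6 bases between the hexamer and the annotated end. HOXC-AS1 has its window at chr12:53999022-53999051 (minus), with 16 bases after the hexamer. For PITPNA-AS1 the window is chr17:1518066-1518095 (plus), and for PIK3CD-AS2 it is chr1:9672413-9672442 (minus). Those of FGD5-AS1 and HOXA11-AS are at chr3:14920352-14920381 (minus) and chr7:27189265-27189294 (plus). Only EP300-AS1 among these 6 windows has the variant hexamer without AATAAA. The PITPNA-AS1 window also holds ATTAAA, overlapping the AATAAA in capitals. The annotated 3′ ends of VPS9D1-AS1, RFX5-AS1, EPB41L4A-AS1 and ATP2A1-AS1, which also appear below, held neither hexamer in that window.

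Most antisense lncRNAs had little or no editing above the control, and fewer of them than of PCGs had any. EPKM was above 0 in 150 of the 409 in the Input (36.7%, against a background of 63.0% of all genes with the same TPM filter). On PABPC it was above 0 in 200 (48.9%, background 70.6%), and on PABPN in 231 (56.5%, background 68.0%). The median EPKM was 0 in the Input and on PABPC and 0.00378 on PABPN. The corresponding medians of PCGs were 0.0152, 0.0320 and 0.0231. A TPM of 5 or more on PABPN, as for 224 antisense lncRNAs, gave medians of 0.00691 on PABPC and 0.0105 on PABPN. It raises the cut on the TPM that chose the members, so it cannot check the order of the IPs. The order turned where 5 or more was required with each PABP, as for 139 members, with medians of 0.0211 and 0.00802 and 66.2% and 60.4% above 0. The upper quartile of antisense lncRNAs was 0.00703 in the Input, 0.0211 on PABPC and 0.0261 on PABPN. Among those above 0, the median was 0.0126, 0.0216 and 0.0236, which for the PABPC IP compares with 0.0515 among PCGs above 0. Antisense lncRNAs thus lay below PCGs both in how many were edited and in how strongly, in sets not matched for TPM. The median TPM on PABPC was 2.48 for antisense lncRNAs and 18.3 for PCGs.

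Against other lncRNAs the order in the share above 0 depended on the fraction. Of other lncRNAs, 27.0% were above 0 in the Input, 38.0% on PABPC and 54.7% on PABPN. Antisense lncRNAs were thus above them by about 10 percentage points in the Input and on PABPC and close to them on PABPN. The other lncRNAs had a larger upper quartile on PABPN, at 0.0369. The sets were not matched in TPM or length. Median TPM was 1.41 for antisense and 1.17 for other lncRNAs in the Input, 2.48 and 1.80 on PABPC, and 5.66 and 5.38 on PABPN. Median exonic length was 3048 and 1686 bases. What part TPM or length has in these shares was not tested.

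Editing in all 3 fractions was uncommon among antisense lncRNAs. EPKM was above 0 in the Input and both IPs for 53 antisense lncRNAs (13.0%, background 37.5%), which compares with 9.02% of other lncRNAs and 43.6% of PCGs. It was above 0 in 2 fractions for 136 (33.3%, beside 33.6% of all genes), in 1 for 150 (36.7%, beside 21.8%) and in none for 70 (17.1%, beside 7.08%). The PABPN IP alone accounted for 75 of those edited in 1 fraction (18.3% of members, beside 9.71% of all genes), the PABPC IP alone for 48 (11.7%, beside 7.47%) and the Input alone for 27 (6.6%, beside 4.59%). By choice all members had a TPM of at least 1 on PABPN, while 92 were under 1 on PABPC and 164 in the Input. The median Input TPM was 1.41 for members and 7.62 for all genes. These patterns thus describe the members as chosen, and the part of TPM in them was not tested. Across the 409 members, Spearman's rho was 0.167 between the EPKM of the Input and of the PABPC IP, 0.0449 between the Input and the PABPN IP, and 0.123 between the IPs. Over the 12454 PCGs the same values were 0.410, 0.280 and 0.250. The points share libraries, and genes are not replicates.

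The share of edited genes was larger at higher TPM, so shares were also compared within ranges of PABPN IP TPM, an alternative added after seeing the data. With a TPM from 1 to 5, 40.5% of 185 antisense lncRNAs were above 0 on PABPC, beside 26.6% of other lncRNAs and 53.0% of PCGs. From 5 to 20, the shares were 53.1% of 162 antisense lncRNAs, 41.9% and 73.4%. At 20 and over, 62.9% of 62 antisense lncRNAs were above 0, beside 64.3% and 84.3%. On PABPC the share was thus below that of PCGs in each range, and above that of other lncRNAs in the lower ranges only. The ranges use the TPM that chose the members, and they do not match the sets in TPM on PABPC. The median log2 TPM ratio of PABPC IP over PABPN IP was -0.99 for antisense lncRNAs, -0.39 for PCGs and -1.50 for other lncRNAs. These shares are a description, and no difference at equal TPM on PABPC was tested. On PABPN the ranges ran from 50.3% to 62.9% for antisense lncRNAs and from 61.0% to 74.8% for PCGs. From the lowest range to the highest, antisense lncRNAs there were at 50.3%, 61.1% and 62.9%, beside 50.9%, 56.3% and 63.0% of other lncRNAs. In the Input they ran from 22.7% to 54.8% for antisense lncRNAs and from 34.6% to 80.3% for PCGs. In level, the median EPKM of antisense lncRNAs on PABPN was below that of PCGs in each range. Their upper quartile there was also lower, except from 5 to 20, where it was 0.0430 beside 0.0406 for PCGs.

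**Figure D1:**
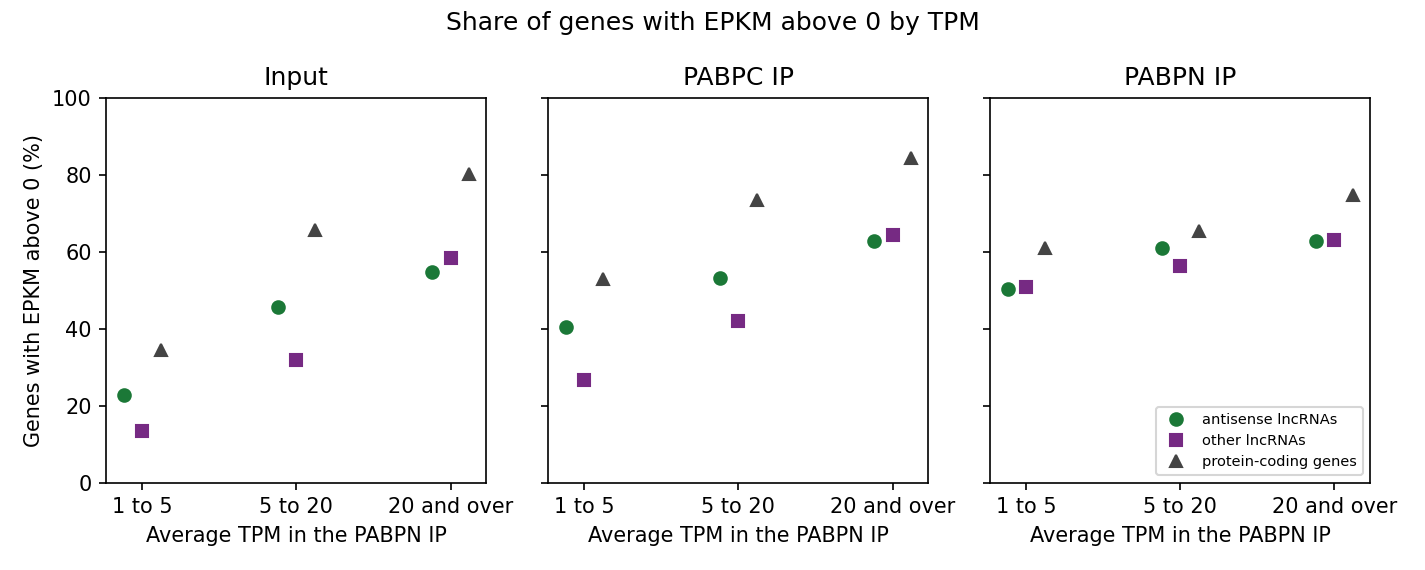
Percent of genes with EPKM above 0 (vertical axis) in 3 ranges of average PABPN IP TPM (horizontal axis), for antisense lncRNAs (circles), other lncRNAs (squares) and PCGs (triangles), with 1 panel per fraction. On PABPC antisense lncRNAs go from 40.5% to 62.9% and stay below PCGs, which go from 53.0% to 84.3%.

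The strongest editing was found in a small number of transcripts, and the order of fractions differed among them. EPKM was above 0.1 in at least 1 fraction for 38 antisense lncRNAs (9.29%, background 28.9%), in at least 2 fractions for 6 (1.47%, background 10.3%) and in all 3 for EP300-AS1 (background 3.08%). EP300-AS1 overlaps the span of EP300, which encodes a histone acetyltransferase, at chr22:41174591-41197508, with no exon shared. Its EPKM was 0.550 in the Input, 0.189 on PABPC and 0.263 on PABPN, and its TPM was 16.9, 54.4 and 37.2 in the same order. It had the highest EPKM of any antisense lncRNA in the Input. EP300 itself had an EPKM of 0.0610, 0.0678 and 0.0702, lower than EP300-AS1 in every fraction.

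HOXC-AS1, from the HOXC cluster of developmental transcription factors at chr12:53999022-54000010, had its highest EPKM on PABPN. The values were 0.0544 in the Input, 0.215 on PABPC and 0.365 on PABPN, and the TPM was 5.65, 18.4 and 23.8. PITPNA-AS1 lies opposite the gene of a phosphatidylinositol transfer protein, at chr17:1516877-1518101. It showed the opposite order of IPs, with 0.106 in the Input, 0.325 on PABPC and 0.0225 on PABPN. Its TPM of 26.9, 65.9 and 77.1 did not follow that order. PIK3CD-AS2, within the span of the gene of a phosphoinositide 3-kinase catalytic subunit, was at 0 in the Input, 0.209 on PABPC and 0.133 on PABPN. RFX5-AS1, opposite a transcription factor of MHC class II genes, was at 0.0318, 0.223 and 0.0487. ATP2A1-AS1 had 0.265 in the Input, 0 on PABPC and 0.0387 on PABPN, although its TPM was 110 on PABPC. The PABPC IP was thus the highest fraction for PITPNA-AS1, PIK3CD-AS2 and RFX5-AS1 and the lowest for ATP2A1-AS1.

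**Figure D2:**
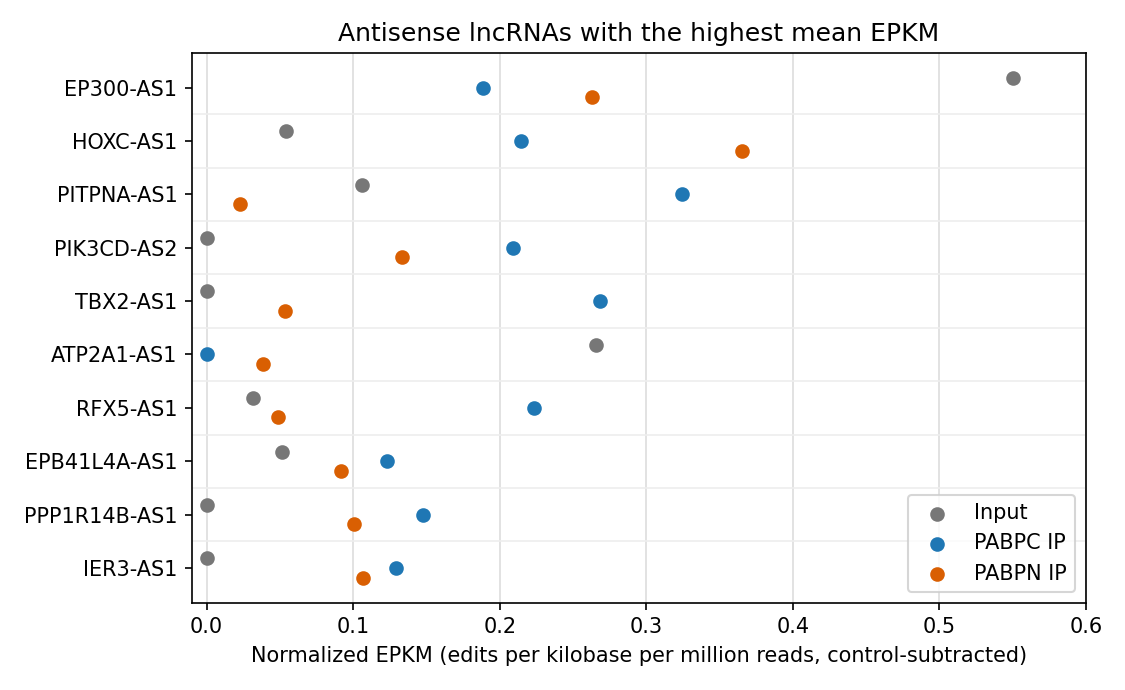
EPKM (horizontal axis, edits scaled to transcript length and read number after subtraction of the control) of the 10 antisense lncRNAs with the highest mean over fractions, with 1 point each for the Input, PABPC IP and PABPN IP. EP300-AS1 reaches 0.550 in the Input, and the order of fractions differs from gene to gene.

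Over the 409 members, EPKM tended to be higher at higher TPM of the same fraction. Spearman's rho between them was 0.395 in the Input, 0.413 on PABPC and 0.211 on PABPN. A high EPKM could still occur at a low TPM. TBX2-AS1, which overlaps the span of the T-box transcription factor TBX2, had an EPKM of 0.268 on PABPC with a TPM of 0.0376 there. On PABPN it had an EPKM of 0.0535 and a TPM of 5.60, and in the Input it was at 0 with a TPM of 0.0237. Of the 92 antisense lncRNAs with a TPM under 1 on PABPC, 25 had an EPKM above 0 (27.2%, beside 23.2% of all genes under 1), as did 32 of the 164 under 1 in the Input (19.5%, beside 18.2%). These shares are near those of genes in general. The TPM was counted with an annotation from which stretches shared by several genes had been removed. How edits in such stretches were assigned for EPKM is not given in the sources used here, so whether the 2 measures cover the same bases of a gene was not tested.

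Conversely, some transcripts abundant on PABPN were without measured editing. VPS9D1-AS1 had the highest TPM of all members, 170 in the Input, 410 on PABPC and 387 on PABPN, and its EPKM was 0 in each. Of the 62 members with a PABPN IP TPM of at least 20, 8 were at 0 in every fraction (12.9%, beside 5.96% of other lncRNAs, 1.6% of PCGs and 1.98% of all genes in that range), including MNX1-AS1, PTOV1-AS2 and VASH1-AS1. That range uses the TPM that chose the members, and TPM elsewhere could be low. In the Input and on PABPC, TPM was 10.8 and 29.9 for MNX1-AS1, 3.33 and 8.39 for PTOV1-AS2, and 8.35 and 11.6 for VASH1-AS1. It was lowest in the Input for FBXL19-AS1, another of the 8, at 2.01, with 2.33 on PABPC. FGD5-AS1, the most abundant after VPS9D1-AS1 at 176 on PABPN, had an EPKM of 0.0597 in the Input, 0.0948 on PABPC and 0.0237 on PABPN. TRIM52-AS1 had 0.0476, 0.0676 and 0, and TMEM147-AS1 had 0.0300, 0.000573 and 0.0863. An EPKM of 0 means no excess over Control-STAMP, not that the transcript carried no edits.

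Between the IPs, more of the antisense lncRNAs, as chosen by TPM on PABPN, had the higher EPKM on PABPN than on PABPC. PCGs passing the same threshold showed the reverse. The order among antisense lncRNAs turned under a filter on both IPs, given below, so it is a description of the members as chosen. EPKM was higher on PABPC for 136 (33.3%, background 47.1%) and lower for 176 (43.0%, background 41.2%), while 97 were at 0 in both. The higher group was 43.6% of those that differed, compared with 35.8% for other lncRNAs and 56.4% for PCGs. A change of at least 2-fold on log2(EPKM + 0.01) was seen upward in 85 (20.8%, background 29.0%) and downward in 113 (27.6%, background 24.4%). With a TPM of 5 or more on PABPN the higher group was 46.1% of those that differed, and with 1 or more in all 3 fractions it was 46.7%. Where the TPM was 5 or more with each of the PABPs, as for 139 members, the order turned and 56.8% of those that differed were higher on PABPC. That filter sets a minimum TPM with each PABP, while the one that chose the members sets it on PABPN alone. As chosen, 92 members had a TPM under 1 on PABPC and 0 had one on PABPN. What part either filter has in the order was not tested. With a pseudocount of 0.1 in place of 0.01, which leaves 19 members past 2-fold, 68.4% were higher on PABPC.

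The largest gains of PABPC over PABPN in EPKM were those of PITPNA-AS1, TBX2-AS1 and RFX5-AS1, given above, followed by NUTM2B-AS1 and MELTF-AS1. NUTM2B-AS1 went from 0.00752 on PABPN to 0.152 on PABPC, and MELTF-AS1 from 0 to 0.132. The largest difference the other way was that of COA6-AS1, from 0.235 on PABPN to 0 on PABPC, where its TPM was 12.9. ATP13A5-AS1 went from 0.162, CLASP1-AS1 from 0.143 and ZFX-AS1 from 0.130, each to 0. CLASP1-AS1 and ZFX-AS1 had a TPM of 1.29 and 0.574 on PABPC. The low TPM on PABPC moved with the 0 for these, and its part in it was not tested.

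Relative to the Input, EPKM was more often higher than lower in either IP for antisense lncRNAs and for genes in general. On PABPC it was higher for 168 antisense lncRNAs (41.1%, background 51.7%) and lower for 96 (23.5%, background 31.5%), and 107 were at least 2-fold higher and 41 at least 2-fold lower, against backgrounds of 30.5% and 15.7%. On PABPN it was higher for 199 (48.7%, background 48.2%) and lower for 92 (22.5%, background 37.2%), and 129 were at least 2-fold higher and 47 at least 2-fold lower, against 31.0% and 21.9%. The 107 and 129 are 26.2% and 31.5% of members, near or below the background. The 41 and 47 are 10.0% and 11.5%, below it. The comparisons share the Input. The members were chosen by TPM on PABPN, where 0 had a TPM under 1, while 164 did in the Input. The order of PABPN and Input is thus a description of the members as chosen. What part the choice has in it was not tested.

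In abundance, antisense lncRNAs were represented on PABPC, relative to the Input, much like genes in general. The median log2 ratio of TPM (with 0.1 added) on PABPC over the Input was 0.97, beside 0.88 for all genes, 0.90 for PCGs and 0.69 for other lncRNAs. A gain of 2-fold or more over the Input was seen on PABPC for 194 (47.4%, background 41.4%), and a loss of that size for 7 (1.71%, background 1.52%). Since the median gene was itself shifted by 0.88, the antisense lncRNAs lay 0.087 above it. The ratio was lowest for DDX39B-AS1, at -2.79, with a TPM of 3.31 in the Input and 0.393 on PABPC. It was highest for MIF-AS1, at 2.10, with 1.41 in the Input and 6.38 on PABPC. MIF-AS1 had 86.3% of its exonic bases inside exons of other genes, and MIF, a cytokine gene, had a TPM of 9709.5 on PABPC. The annotation behind the TPM left out stretches shared by several genes, and how much of MIF-AS1 it kept was not tested. The libraries came from a stranded kit, but how strand was used in assigning edits to genes is not given in the sources used here, and whether EPKM separates the partners was not tested.

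Set against the PABPN IP, the values used in the choice, the median log2 ratio of the PABPC IP was -0.99, beside -0.54 for all genes, -0.39 for PCGs and -1.50 for other lncRNAs. At least 2-fold lower on PABPC were 200 (48.9%, background 35.7%) and at least 2-fold higher 2 (0.489%, background 5.64%). Those 2 were AGAP2-AS1, with a TPM of 52.0 on PABPC and 20.7 on PABPN, and MIF-AS1. All the exonic bases of AGAP2-AS1 lie inside exons of other genes. The lowest ratio was that of TBX2-AS1, at -5.37. STAM-AS1 followed at -4.25, with a TPM of 0.591 on PABPC and 13.1 on PABPN, and NFYC-AS1 was at -4.07, with 2.56 and 44.7. The PABPN IP over the Input had a median of 1.86, beside 1.39 for all genes, and was at least 2-fold higher for 390 (95.4%, background 68.3%) and 2-fold lower for none (background 0.415%). Members just above the threshold were SH3RF3-AS1, ZNF45-AS1 and CYP51A1-AS1, with a PABPN IP TPM of 1.00, 1.02 and 1.04. Just below it were SMIM15-AS1 at 0.998, PRC1-AS1 at 0.991 and ZNF433-AS1 at 0.950.

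Members with a polyadenylation hexamer near their annotated end (182 transcripts) had a median log2 TPM ratio of PABPC IP over Input of 1.01, close to the 0.93 of those without one (224 transcripts). Over the PABPN IP, whose TPM chose the members, the medians were -0.78 and -1.13. In EPKM, 51.6% of those with and 46.9% of those without a hexamer were above 0 on PABPC, and 58.2% and 54.5% on PABPN. No test of these differences was possible.

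The sense gene named before -AS was in the table for 359 members, making 359 pairs with 356 distinct sense genes, 357 of the pairs having a protein-coding one. The names of the other 50, such as HOXC-AS1, point to no gene of the table. In GENCODE 44, 272 of 358 pairs had overlapping exons, 45 overlapped in their spans alone, 40 lay head to head without overlap and 1 lay tail to tail. The start sites were within 1000 bases of each other in 160. Antisense lncRNAs had a median of 3 exons in the canonical transcript and 39 had a single exon. Their median exonic length, 3048 bases over all isoforms, was longer than that of other lncRNAs (1686 bases) and shorter than that of PCGs (5421 bases).

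The antisense lncRNA had the lower EPKM in most pairs. On PABPC it was lower in 235 of 359 (65.5%), higher in 85 and equal in 39. In the Input it was lower in 212 (59.1%) and higher in 77, and on PABPN lower in 215 (59.9%) and higher in 108. The median EPKM of the sense genes was 0.0132 in the Input, 0.0300 on PABPC and 0.0259 on PABPN. The antisense lncRNA was also the less abundant partner in 302, 287 and 287 pairs in the Input, PABPC IP and PABPN IP, with a median log2 TPM ratio of -2.55, -2.45 and -2.01.

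Pairs were also split by which partner had the higher TPM in the Input, a value that did not choose the members. In the 302 pairs where the antisense lncRNA had the lower TPM, its EPKM was lower in 203 and higher in 48 in the Input, 223 and 55 on PABPC, and 188 and 84 on PABPN. In the 57 pairs where it had the higher TPM, its EPKM was lower in 9 and higher in 29 in the Input, 12 and 30 on PABPC, and 27 and 24 on PABPN. The more abundant partner thus more often had the higher EPKM in the Input and on PABPC, while on PABPN the 57 pairs were nearly even. Where the partners' TPM on PABPN was within 2-fold, in 75 pairs, the antisense lncRNA was lower in 36 and higher in 26 on PABPC, 29 and 25 in the Input, and 45 and 25 on PABPN. These splits by TPM were added after seeing the data.

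Antisense lncRNAs were edited about as often whether or not their sense gene was. On PABPC, EPKM was above 0 in 48.2% of antisense lncRNAs whose sense gene was above 0 and in 50.6% of those whose sense gene was at 0. On PABPN these shares were 55.8% and 61.7%, and in the Input 35.3% and 40.7%. Spearman's rho over the 359 pairs was -0.0914 in the Input, 0.0504 on PABPC and -0.00493 on PABPN, as a description over genes of the same libraries. By position, 48.9% of members with overlapping exons, 51.1% of those overlapping in span alone and 45.0% of those head to head were above 0 on PABPC. Members at least 50% covered by exons of other genes were above 0 in 51.3%, and those with no such overlap in 53.6%.

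**Figure D3:**
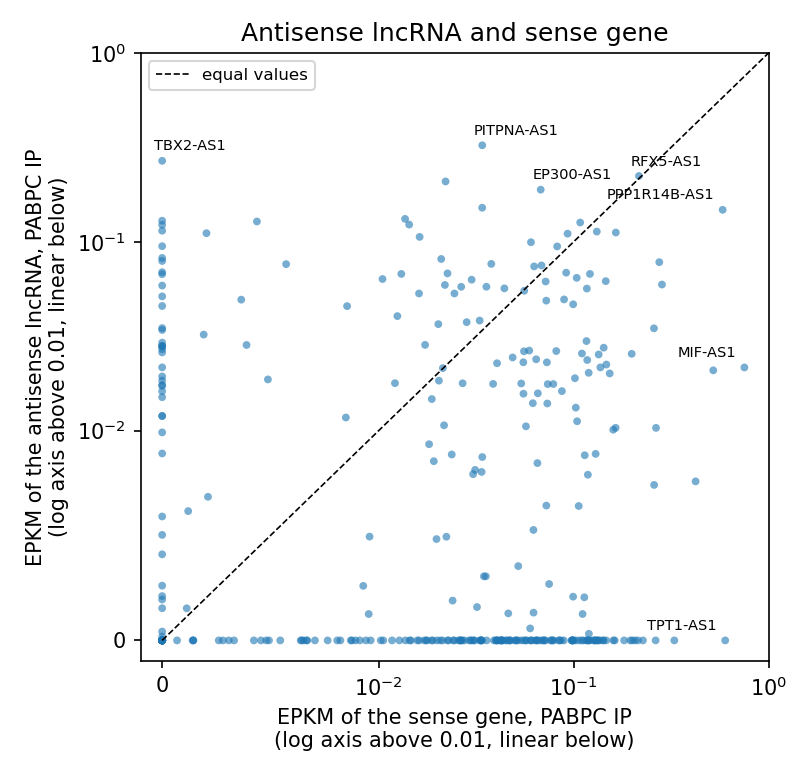
EPKM on PABPC of each antisense lncRNA (vertical axis) against its sense gene (horizontal axis) for 359 pairs, on axes that are logarithmic above 0.01 and linear below, with a dashed line at equal values. Of the pairs, 235 lie below the line and 85 above it, and points along the axes are genes at 0.

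The widest gaps on PABPC were in pairs with abundant sense genes. MIF had an EPKM of 0.752 and MIF-AS1 of 0.0216. TPT1, which encodes a translationally controlled protein, had 0.600, and TPT1-AS1, a head-to-head partner whose start is 61 bases away, was at 0 in each fraction. MYG1 had 0.521 and MYG1-AS1 0.0209, while PPP1R14B, a phosphatase regulator, had 0.582 and PPP1R14B-AS1 0.148. PHC2, a Polycomb protein gene, had 0.423 and PHC2-AS1 0.00758. In the other direction, PITPNA-AS1 had 0.325 against 0.0340 for PITPNA, with 63.9% of its exonic bases inside other exons. TBX2-AS1 had 0.268 against 0 for TBX2, and PIK3CD-AS2 0.209 against 0.0220 for PIK3CD. IER3-AS1 had 0.129 and PRKAG2-AS1 0.128, and IER3, an immediate early gene, was at 0. RFX5-AS1 and RFX5 were close, at 0.223 and 0.216.

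The spread over the PABPs is given for the pairs as a description, since the antisense lncRNAs, and not the sense genes, were chosen by their TPM on PABPN. The log2 TPM ratio of PABPC IP over PABPN IP had a median of -0.95 for the antisense lncRNAs of the pairs and -0.49 for their sense genes. The antisense lncRNA had the lower ratio in 213 of the 359 pairs, and Spearman's rho between partners was 0.0349. For EP300-AS1 the order was the other way: its ratio was 0.55 and that of EP300 was -2.10.

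**Figure D4:**
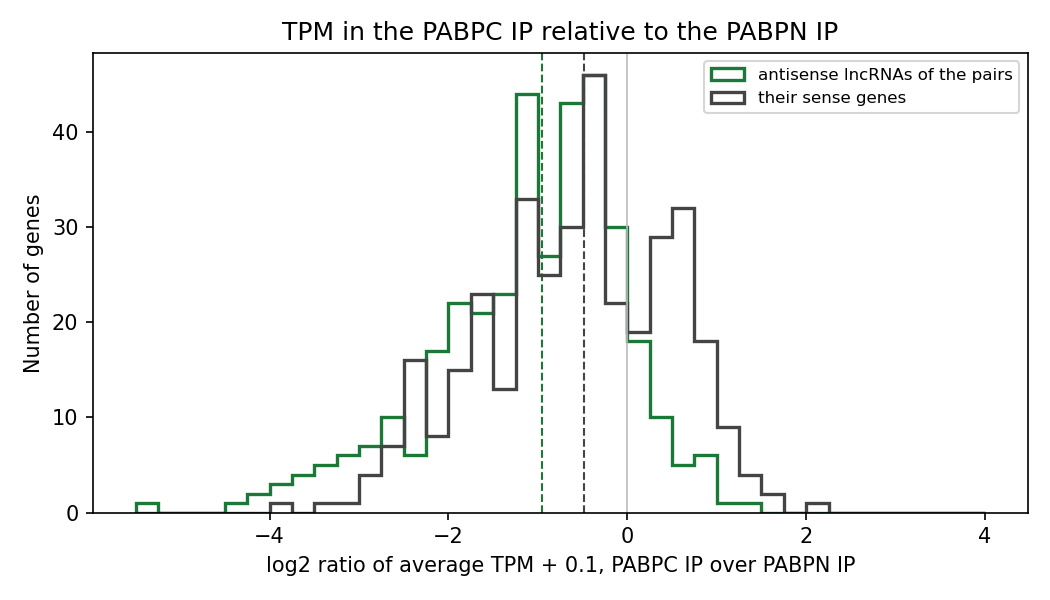
Number of genes (vertical axis) by log2 ratio of average TPM + 0.1, PABPC over PABPN (horizontal axis) for the antisense lncRNAs of the 359 pairs and for their sense genes, with dashed lines at the medians of -0.95 and -0.49. The PABPN IP TPM chose the antisense lncRNAs.

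Of the members, 11 were named for a HOX gene or cluster: the 10 listed for the HOX clusters and HOXC13-AS, added after its values were seen. EPKM was above 0 for 4 of the 11 in the Input, 9 on PABPC and 7 on PABPN, beside 36.7%, 48.9% and 56.5% of all members and 63.0%, 70.6% and 68.0% of all genes. Without HOXC13-AS the counts were 3, 8 and 7 of 10. A lower TPM on PABPC than on PABPN, the value used in the choice, was found for 8 of the 11, beside 89.0% of all members and 68.1% of all genes. HOXC13-AS had an EPKM of 0.00836, 0.0630 and 0 and a TPM of 8.09 on PABPC and 7.76 on PABPN. HOXA11-AS was the most abundant, with a TPM of 24.6 in the Input, 61.6 on PABPC and 90.5 on PABPN and an EPKM of 0.0508, 0.110 and 0.0364. HOXC-AS2, a neighbour of HOXC-AS1, also had its highest EPKM on PABPN, at 0.0976 beside 0.0415 on PABPC and 0 in the Input. HOXA10-AS was at 0, 0 and 0.0573, and HOXD-AS2 at 0, 0.0480 and 0. HOXA-AS3 was above 0 in each fraction, at 0.0104, 0.0137 and 0.00664. HOXB-AS3, in which a small peptide has been described, had an EPKM of 0.00249 on PABPC and 0 in the Input and on PABPN, with a TPM of 12.4 on PABPC. These transcripts, from 4 HOX clusters, did not share 1 order of fractions. Within the HOXC cluster, HOXC-AS1 and HOXC-AS2 were highest on PABPN, HOXC13-AS was highest on PABPC, and HOXC-AS3 was at 0 in the Input and nearly equal in the IPs, at 0.0109 on PABPC and 0.0105 on PABPN.

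Of 32 antisense lncRNAs listed for a published role, 14 were members. EPKM was above 0 for 8 in the Input, 9 on PABPC and 11 on PABPN, beside 63.0%, 70.6% and 68.0% of all genes. For TPM, 13 of the 14 had a lower TPM on PABPC than on PABPN, beside 364 of all 409 members and 68.1% of all genes. FOXN3-AS1 was the exception, with a TPM of 9.71 on PABPC and 6.03 on PABPN. VIM-AS1, opposite the gene of the intermediate filament vimentin, had 0 in the Input, 0.0565 on PABPC and 0.0592 on PABPN. FOXD2-AS1 had 0.000302, 0.0691 and 0. BACE1-AS, which stabilises the mRNA of the secretase BACE1, had 0.0120, 0.00495 and 0.0231, and its TPM was 7.09 on PABPC and 23.4 on PABPN. CDKN2B-AS1, known for recruiting Polycomb proteins to the INK4 locus, was at 0 in the Input and on PABPC and at 0.00903 on PABPN. GABPB1-AS1 had 0.00242, 0.00935 and 0.0236, and ZEB1-AS1 was at 0.0213, 0 and 0. GATA6-AS1 was at 0 throughout. The values of this group thus reached at most 0.0691.

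Among 5 antisense lncRNAs listed for a small nucleolar RNA or peptide within them, 3 were members. EPB41L4A-AS1, a host of a small nucleolar RNA, was the most edited of them, with 0.0513 in the Input, 0.123 on PABPC and 0.0917 on PABPN. Its sense gene EPB41L4A had 0.000268, 0 and 0.0119, and its TPM on PABPC was 2.01 beside 27.9 for the antisense lncRNA. TAPT1-AS1 was above 0 on PABPN alone, at 0.0236, and HOXB-AS3 was described above.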

How the data were processed

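Alignment to hg38 was done with STAR and counting with featureCounts 2.0.2, per the submitters' processing notes. The deposited normalized EPKM is a signal made by the authors by scaling C-to-U edits by length and reads and subtracting the control. The authors' deposited average TPM, recorded here as a score because each gene is repeated over several rows of the file, adds exonic and intronic TPM from a custom GENCODE 34 annotation. The strand setting of counting and the samples behind each average are not given in the sources used here. Library depths were not in the files.

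Computed from these were counts, medians and log2 ratios (EPKM + 0.01, TPM + 0.1), with a change called at 2-fold. Members were matched by gene identifier to GENCODE 44 on hg38 for positions and transcript ends, and 406 of 409 were found. Of these, 17 carry another name in GENCODE 44, such as STAM-DT for STAM-AS1. The members, lists and rules for named genes were chosen with earlier results of these data known. Genes named were the 10 highest in mean EPKM and in PABPN IP TPM, the 5 at each extreme of the differences, TPM ratios and sense pairs, those nearest the threshold, and the lists. Not every gene so selected is printed. The scripts were tested on simulated data. In comparing alternatives, a share within its 95% Wilson interval and a median within its order-statistic interval counted as unmoved. Python 3.11.15, pandas 2.3.3, NumPy 2.4.6, SciPy 1.17.1 and matplotlib 3.10.9 were used.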

Additional observations from a re-analysis of the deposited data

Results flagged for a closer look

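Antisense-named lncRNAs outside the 409 members also carried editing above the control. Of the 12 without a TPM, 8 were edited above the control in 1 fraction or more (66.7%, beside 71.0% of all genes without a TPM), the highest being RNF207-AS1 at 0.141 on PABPN. Of the 70 with a PABPN IP TPM under 1, 42 were so edited (60%, beside 70.5% of all genes under 1). Both shares lie below those of the 409 members (82.9%) and of all genes that pass the threshold (92.9%). OIP5-AS1, which was left out by name, had an EPKM of 0.0591 in the Input, 0.150 on PABPC and 0.00159 on PABPN.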

How the results depend on the processing

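Replicates were pooled, so leaving out a replicate was not run. No paired analysis was possible because each column holds a value pooled over replicates. Of 111 alternatives over 13 results, 59 left the value within its interval, 50 moved it and 2 turned its direction. The turned ones are the share of unequal members higher on PABPC than on PABPN (43.6%), which became 56.8% where the TPM was 5 or more with each PABP and 68.4% at 2-fold on log2(EPKM + 0.1). The cause was not tested. Some alternatives were bound to one outcome. Taking members above 0 in at least 1 IP gave the same 312 members as the main result, and counts as unmoved. An EPKM above 0.01 in place of 0 could only lower a share. The tally counts settings and is not a measure of robustness.

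A TPM of at least 5 on PABPN moved the median EPKM to 0.00691 on PABPC and 0.0105 on PABPN, and the shares above 0 to 48.2% (Input), 55.8% (PABPC IP) and 61.6% (PABPN IP). It moved the share of unequal pairs with the antisense lncRNA lower to 65.1% (Input) and 66.3% (PABPC IP). Requiring 5 with each PABP gave medians of 0.00147, 0.0211 and 0.00802 in the Input, PABPC IP and PABPN IP, shares above 0 of 55.4% and 66.2% in the Input and PABPC IP, pair shares of 59.6% and 61.5% there, and median log2 TPM ratios of 1.64 (PABPN IP over Input), 1.24 (PABPC IP over Input) and -0.53 (PABPC IP over PABPN IP). A TPM of at least 1 in the Input and both IPs gave medians of 0.00843 and 0.00856 on PABPC and on PABPN, shares above 0 of 49.2%, 58.4% and 62.2% in the Input, PABPC IP and PABPN IP, pair shares of 65.9% and 67.3% in the Input and PABPC IP, and ratios of 1.08 (PABPC IP over Input) and -0.74 (PABPC IP over PABPN IP). Without a TPM filter, 43.6% were above 0 on PABPC, and the ratios over the Input were 1.75 (PABPN IP) and 0.89 (PABPC IP).

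The mean EPKM was 0.0104 in the Input, 0.0192 on PABPC and 0.0213 on PABPN. An EPKM above 0.01 was reached by 21.0%, 35.2% and 41.6%. Pairs with both above 0 had the antisense lncRNA lower in 65.9% (Input) and 66.7% (PABPC IP), and pairs within 2-fold in TPM, chosen after seeing the data, in 53.7% and 58.1%. For the TPM ratios of PABPN IP over Input, PABPC IP over Input and PABPC IP over PABPN IP, log2(TPM + 1) gave 1.36, 0.65 and -0.70, centring on all genes 0.48, 0.087 and -0.44, and the mean 1.94, 0.83 and -1.11. Rescaling to 1 sum gave 1.69 and 0.77 for the ratios over the Input. Adding OIP5-AS1 or leaving out the 39 members at least 50% overlapped moved none of the 13 results.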

Other observations

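ASMTL-AS1, below the TPM threshold, was listed at a TPM of 0 in each fraction and had an EPKM of 0.0151 in the Input, 0 on PABPC and 0.146 on PABPN. THAP9-AS1 and PSMA3-AS1, both on the list of published roles, had no TPM. THAP9-AS1 had an EPKM of 0.0105 in the Input and 0.0466 on PABPN, and PSMA3-AS1 had 0.0392 in the Input alone.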
